A study of Mus musculus with 4 samples.

Results

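Of the 24982 genes in a count table of E10.5 mouse forebrain, 38 that encode the DNA replication and mitosis machinery were taken by symbol, 19 that act in S phase and 19 that act in G2 and mitosis (G2/M). The forebrain was micro-dissected at E10.5 (the embryonic day) and sequenced as polyA RNA. Conditional knockout (cKO) libraries carried the genotype Sox1 cre+/-; Chd7 f/f, and control libraries carried Chd7 +/f, with 2 libraries in each group. Both groups therefore held a floxed allele of Chd7, a gene for an ATP-dependent chromatin remodeller. A Cre allele was named for the cKO group only, so an effect of that allele and the loss of Chd7 cannot be told apart. By its name the Cre follows Sox1, a gene of early neural cells, so cells of other lineages in the dissected tissue may have kept Chd7. Whether 1 embryo or several went into a library is not stated, so p-values refer to the spread among the 4 libraries and no further.

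Neuroepithelial cells of the embryonic forebrain divide rapidly, and the balance between division and exit from the cycle sets how many neurons form. Before S phase, licensing factors load the MCM helicase on origins, and E2F factors switch on genes for replication and nucleotide synthesis. In G2 and mitosis another set of genes, for the cyclin B kinase, the spindle, the kinetochore and the anaphase-promoting complex, is switched on through B-MYB, FOXM1 and the MuvB complex, which binds promoter elements named CHR (cell cycle genes homology region), often with nearby CCAAT boxes bound by NF-Y. The mRNA level of either set in a tissue follows both the share of cycling cells and the transcription per cell. In bulk tissue, fewer cycling cells and less RNA per cell cannot be told apart.

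E2F and CHR matches differ in frequency between the promoters of the S phase and G2/M members, and 4 promoters with such matches are shown. Mcm5 and Mcm6 are among the 6 of 17 S phase promoters with an E2F match, so they do not stand for all. The windows run from 250 bases before the start site of transcription to the first 50 bases of the transcript, in the RefSeq annotation of GRCm38.p6, and 32 of the 38 members had one; Mcm7 had 2, so the 16 S phase genes matched have 17 windows. Capitals mark matches on either strand to the E2F element (TTTCGCGC, TTTGGCGC, TTTCCCGC or TTTGCCGC), to the CHR element (TTTGAA or TTCGAA) or to CCAAT. Mcm5 (chr8:75109259-75109558, + strand) and Mcm6 (chr1:128359656-128359955, − strand) encode helicase subunits. Cdk1 (chr10:69352863-69353162, − strand) and Ccnb2 (chr9:70421505-70421804, − strand) encode the mitotic kinase and a B-type cyclin partner of it.
Mcm5: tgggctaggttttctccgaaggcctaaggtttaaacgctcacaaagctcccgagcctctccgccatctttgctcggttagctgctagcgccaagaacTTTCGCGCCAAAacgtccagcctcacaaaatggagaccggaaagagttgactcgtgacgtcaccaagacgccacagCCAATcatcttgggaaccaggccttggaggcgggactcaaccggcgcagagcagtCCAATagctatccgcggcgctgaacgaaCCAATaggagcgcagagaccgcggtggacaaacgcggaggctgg
Mcm6: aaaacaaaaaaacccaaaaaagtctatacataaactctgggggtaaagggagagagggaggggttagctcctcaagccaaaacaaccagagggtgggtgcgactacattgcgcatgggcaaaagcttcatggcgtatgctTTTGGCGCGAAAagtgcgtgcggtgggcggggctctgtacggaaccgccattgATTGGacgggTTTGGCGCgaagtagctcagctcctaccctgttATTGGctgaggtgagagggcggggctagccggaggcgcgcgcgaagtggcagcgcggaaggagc
Cdk1: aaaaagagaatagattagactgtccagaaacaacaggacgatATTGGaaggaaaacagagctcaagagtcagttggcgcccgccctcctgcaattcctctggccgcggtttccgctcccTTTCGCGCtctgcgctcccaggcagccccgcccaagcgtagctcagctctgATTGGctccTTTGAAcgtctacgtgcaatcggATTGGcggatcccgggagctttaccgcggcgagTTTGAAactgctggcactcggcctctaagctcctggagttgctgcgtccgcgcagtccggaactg
Ccnb2: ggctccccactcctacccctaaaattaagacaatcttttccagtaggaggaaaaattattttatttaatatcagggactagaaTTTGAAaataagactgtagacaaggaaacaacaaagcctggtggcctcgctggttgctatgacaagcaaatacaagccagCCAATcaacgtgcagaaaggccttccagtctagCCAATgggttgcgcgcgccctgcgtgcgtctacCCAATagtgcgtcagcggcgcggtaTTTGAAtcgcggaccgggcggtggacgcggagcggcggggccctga

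In the Mcm5 promoter a pair of overlapping E2F matches begins 153 and 149 bases before the start site, with CCAAT 77 and 22 bases before it and 6 bases after it. The Mcm6 promoter holds 3 E2F matches, the first 110 bases before the start site. Neither holds a CHR match. The Ccnb2 promoter has CCAAT 87, 54 and 21 bases before the start site and CHR matches that begin 167 bases before and 4 bases after it, with no E2F match. Cdk1 holds all 3 elements, with E2F 131 bases and CHR 71 and 15 bases before the start site. These are letter matches, not measured binding sites.

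Across the members, an E2F match was found in 6 of 17 promoters of S phase genes (35.3%) and in 1 of 16 promoters of G2/M genes (6.25%), against 3.85% of the 14129 promoters of genes tested and 2.26% of all 32851 promoters in the table. CHR went the other way, with a match in 4 of 17 S phase promoters (23.5%) and 12 of 16 G2/M promoters (75.0%), against 13.6% of those of genes tested and 19.2% of all promoters. CCAAT was found in 11 of 17 S phase promoters (64.7%) and 14 of 16 G2/M promoters (87.5%), against 37.5% of those of genes tested and 37.4% of all. At least 2 CCAAT boxes stood in 35.3% of S phase and 68.8% of G2/M promoters, against 13.8% of those of genes tested and 11.7% of all. Every G2/M promoter with a CHR match also held CCAAT (12 of 16), and so did every S phase promoter with one (4 of 17). The combination was found in 55.9% of promoters of other mitosis genes and 5.66% of those of other replication genes. It was found in 5.61% of promoters of genes tested and 7.52% of all promoters. For E2F and CHR, further genes of each process showed shares of the same order. In promoters of other replication genes E2F was matched in 30.2% and CHR in 17.0%, and in those of other mitosis genes E2F was matched in 8.47% and CHR in 69.5%. The plot of motif shares sets these sets side by side.

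**Figure D1:**
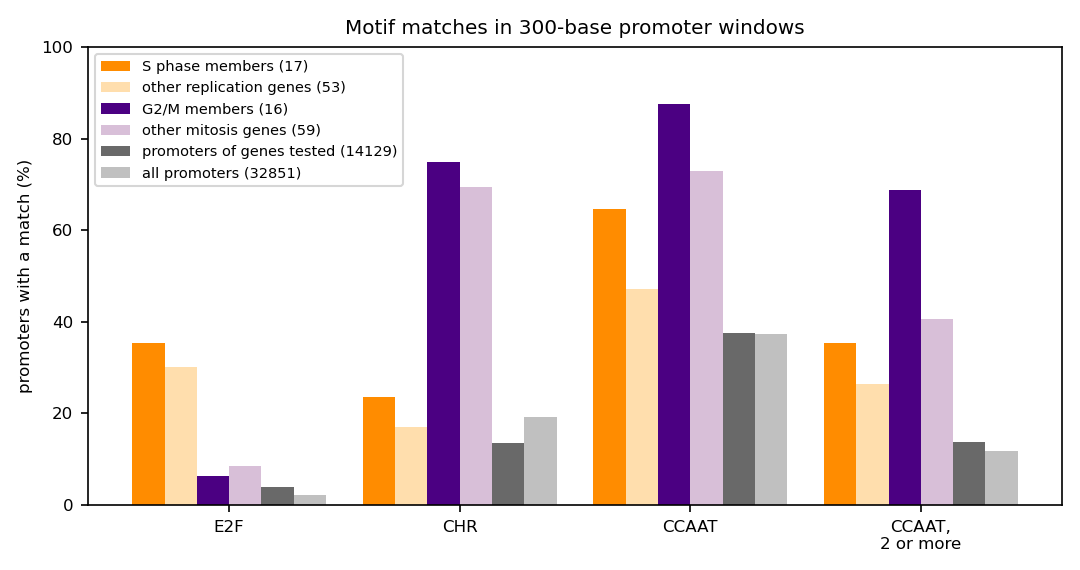
Share of 300-base promoter windows (vertical axis, percent) with a match to E2F, CHR, CCAAT or at least 2 CCAAT boxes (horizontal axis); bars are gene sets, with the number of promoters in brackets. E2F bars are highest for S phase genes (35.3%) and CHR bars for G2/M genes (75.0%).

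Facts of the libraries bear on what follows. Totals ran from 16581252 to 17096522 counts per library. Levels are given as CPM after TMM scaling of the library sizes, and each log2 fold change sets cKO over control. Chd7 itself was at 136 and 132 CPM in cKO and 339 and 345 CPM in control libraries (log2 fold change −1.35 with an SE of 0.05, adjusted p = 8.7e-05 in edgeR). Otx2, a marker of forebrain and midbrain, was at 144 and 208 CPM in cKO and 137 and 165 CPM in control libraries. Six3 and Emx2, further forebrain genes, were present in every library, at 31.4 to 179 CPM. Ventral genes differed within both groups: Shh was at 2.47 and 40.6 CPM in cKO and 6.78 and 22.8 CPM in control libraries, and Nkx2-1 at 4.28 and 8.05 CPM in cKO and 3.42 and 34.0 CPM in control libraries. The second library of each group was thus the higher one for both genes, and the part of this in the values of the replication and mitosis genes was not tested. None of 39 Hox genes, which mark the hindbrain and spinal cord, passed the count filter. Replicates of a group were distinct libraries, with a chi-square per degree of freedom of 4.69 for the cKO and 5.57 for the control pair.

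With Chd7 lower, the replication and mitosis genes were close to their control levels. All 38 members passed the count filter, and 0 were called at an adjusted p under 0.05 by the edgeR quasi-likelihood test, by DESeq2 or by limma-voom. Among all 14235 genes tested, edgeR called 3.70% and limma-voom 3.38%, and DESeq2 called 4.57% of the 13959 genes it gave an adjusted p. At an unadjusted p under 0.05, edgeR marked 2 of 38 members, both higher, or 5.26%, against 17.5% of all genes. The S phase members had a median log2 fold change of 0.03 (13 above and 6 below 0) and the G2/M members of −0.01 (9 above and 10 below), beside −0.0003 over all genes tested. Single members ran from −0.12 for E2f1 to 0.17 for Cdt1. The difference between the S phase and G2/M medians was not tested.

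The intervals bound the size of any difference. There were 551 to 17973 counts per member and library, and the SE of the log2 fold change was 0.04 to 0.09 for the members. For all 38 members the 95% interval of the fold change, not adjusted for the number of genes, lay within 1.3-fold in either direction. The highest upper bound was 1.26-fold, for Cdt1, and the lowest lower bound 0.809-fold, for E2f1. These intervals rest on 2 libraries a group and on a spread that edgeR shares across genes.

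**Figure D2:**
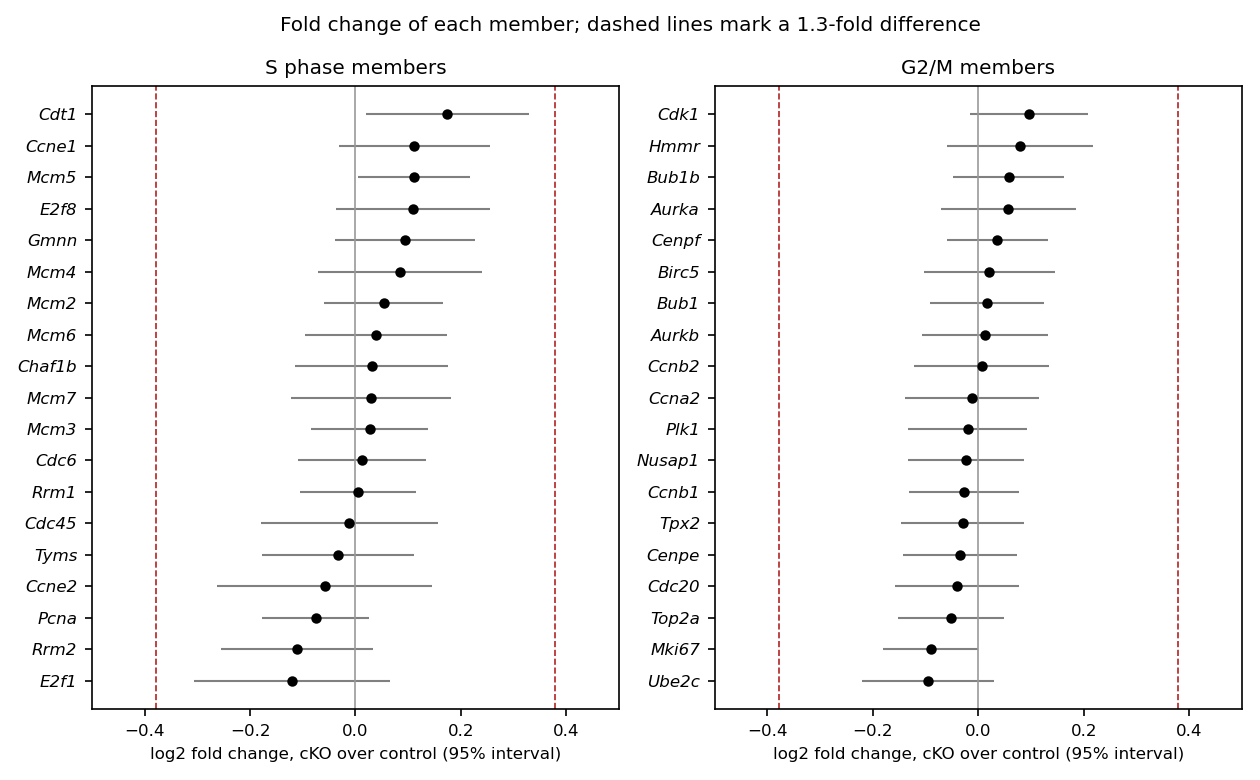
Log2 fold change of each member, cKO over control (horizontal axis), with its 95% interval as a bar, for S phase genes on the left and G2/M genes on the right, sorted by size. Dashed lines mark 1.3-fold, and every interval lies between them, the widest reach being that of Cdt1 (1.26-fold).

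The differences were small also beside those of abundant genes, a set with a minimum level but not matched to the members in abundance (median SE 0.05 for the members and 0.06 for that set). An absolute log2 fold change of at most 0.1 was found for 84.2% of members, for 62.4% of the 6159 genes with a mean at or above that of the lowest member (35.6 CPM) and for 43.2% of all genes tested. At most 0.2 was reached by 100% of members, 86.5% of those abundant genes and 65.9% of all genes. Of the abundant genes edgeR called 4.61%. The plot of difference sizes shows the 3 sets.

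**Figure D3:**
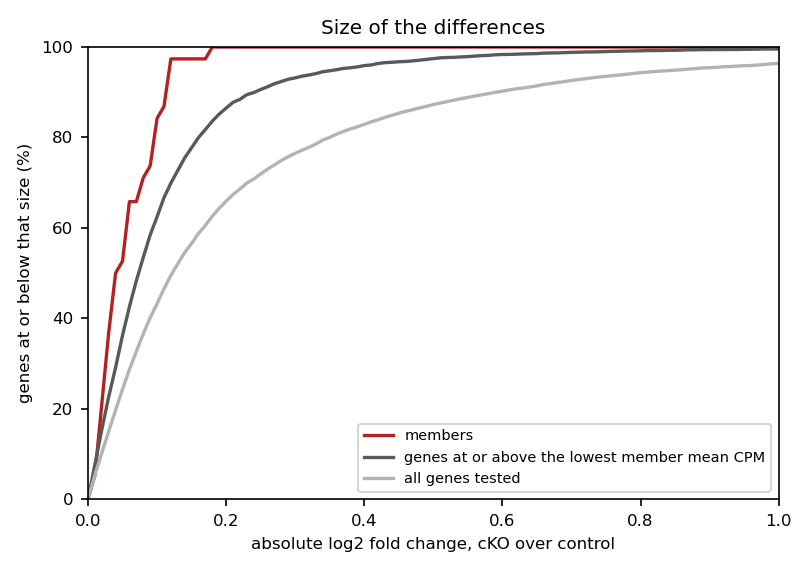
Cumulative share of genes (vertical axis, percent) at or below an absolute log2 fold change (horizontal axis) for the 38 members, for genes at or above the lowest member mean in CPM and for all genes tested. The curve of the members is at 100% by 0.2, where all genes tested are at 65.9%.

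Among the S phase genes, Mcm2 to Mcm7 encode the 6 subunits of the MCM ring, which unwinds DNA at the fork. Mcm2 was at 367 and 388 CPM in cKO and 356 and 371 CPM in control libraries. Mcm7 was at 439 and 502 CPM in cKO and 469 and 453 CPM in control libraries. Both overlapped between groups, and so did Mcm3, Mcm4 and Mcm6. Mcm5 was at 374 and 392 CPM in cKO and 351 and 358 CPM in control libraries, with both cKO libraries above both controls (log2 fold change 0.11, SE 0.05, unadjusted p = 0.043, edgeR adjusted p = 0.27). The 6 subunits had log2 fold changes of 0.03 to 0.11, but without cKO replicate 2 those of Mcm3, Mcm4, Mcm6 and Mcm7 were −0.02, −0.02, −0.04 and −0.07. Cdc45, which joins MCM and GINS into the active helicase, was at 63.5 and 70.9 CPM in cKO and 67.5 and 67.9 CPM in control libraries, and the groups overlapped (log2 fold change −0.01, SE 0.07).

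Licensing genes place MCM on origins and keep it from reloading. Cdt1, a loading factor, was at 102 CPM in each cKO library and 85.4 and 95.3 CPM in control libraries. That was the largest difference among the 38 members, 1.13-fold, with cKO above control, and it did not pass the adjusted threshold (log2 fold change 0.17, SE 0.07, unadjusted p = 0.033, edgeR adjusted p = 0.23). Its log2 fold change was 0.26 without control replicate 2, with an edgeR adjusted p of 0.076, and 0.10 without control replicate 1. Gmnn, whose product geminin inhibits CDT1, was at 79.3 and 80.6 CPM in cKO and 75.6 and 74.1 CPM in control libraries, again without overlap (log2 fold change 0.09, SE 0.06, edgeR adjusted p = 0.46). Cdc6, which acts with CDT1 in loading, was at 104 and 103 CPM in cKO and 103 and 102 CPM in control libraries.

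Genes of the fork and of nucleotide supply had log2 fold changes of both signs, without a call. Pcna, the sliding clamp of DNA polymerases, was at 486 and 481 CPM in cKO and 522 and 498 CPM in control libraries (log2 fold change −0.08, SE 0.04, edgeR adjusted p = 0.43), with both cKO libraries below both controls. Rrm2, the small subunit of ribonucleotide reductase, was at 488 and 546 CPM in cKO and 575 and 542 CPM in control libraries, and the groups overlapped (log2 fold change −0.11, SE 0.06). Rrm1, the large subunit, had a log2 fold change of 0.005. Tyms, the thymidylate synthase gene, was at −0.03 and Chaf1b, a subunit of the chromatin assembly factor CAF-1, at 0.03 on that scale.

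The regulators of S phase entry split in sign. Ccne1 and Ccne2 encode E-type cyclins, the partners of CDK2 at the G1/S boundary. Ccne1 was at 71.7 and 75.1 CPM in cKO and 68.8 and 67.0 CPM in control libraries, while Ccne2 was at 33.2 and 36.6 CPM in cKO and 36.5 and 36.2 CPM in control libraries (log2 fold changes 0.11 and −0.06). E2f1, an activator of replication genes, was at 57.8 and 65.0 CPM in cKO and 69.2 and 64.2 CPM in control libraries, with overlap (log2 fold change −0.12, SE 0.08, edgeR adjusted p = 0.50). E2f8, an atypical E2F that represses such genes, was at 65.9 and 69.3 CPM in cKO and 62.5 and 62.7 CPM in control libraries, with no overlap (log2 fold change 0.11, SE 0.06, edgeR adjusted p = 0.43).

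Among the G2/M genes, Mki67 and Top2a serve chromosome structure, and for each both cKO libraries lay below both controls. Mki67, which encodes the proliferation antigen Ki-67 at the surface of mitotic chromosomes, was at 949.9 and 959.9 CPM in cKO and 1005 and 1028 CPM in control libraries (log2 fold change −0.09, SE 0.04, edgeR adjusted p = 0.28). Top2a, the topoisomerase that untangles chromosomes, was at 1005 and 1019 CPM in cKO and 1078 and 1021 CPM in control libraries (log2 fold change −0.05, SE 0.04). Neither difference was called, and for Mki67 the interval ran from 0.882-fold to 1.00-fold.

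Cdk1 and its cyclins drive entry into mitosis. Cdk1 was at 179 and 184 CPM in cKO and 168 and 171 CPM in control libraries, with both cKO libraries above both controls (log2 fold change 0.10, SE 0.05, edgeR adjusted p = 0.35). Ccnb1 was at 312 and 320.5 CPM in cKO and 328 and 317 CPM in control libraries. Ccnb2 was at 112 and 113 CPM in cKO and 109 and 115 CPM in control libraries. The groups overlapped for both B-type cyclins and for Ccna2, the A-type cyclin, and the log2 fold changes of the 3 cyclin genes were −0.03, 0.01 and −0.01.

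The mitotic kinases and checkpoint genes spanned log2 fold changes of −0.02 to 0.06. Plk1, the polo kinase, was at 175 and 181 CPM in cKO and 182 and 179 CPM in control libraries. Aurkb, the kinase of the chromosomal passenger complex, was at 119.5 and 123 CPM in cKO and 119 and 121 CPM in control libraries. For both the groups overlapped, as for Aurka, the centrosomal Aurora kinase, for Bub1, a checkpoint kinase, and for Birc5, the passenger subunit survivin. Bub1b, which encodes the checkpoint protein BUBR1, was at 262 and 271 CPM in cKO and 254 and 258 CPM in control libraries, without overlap (log2 fold change 0.06, SE 0.04).

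Genes that end mitosis included the lowest G2/M value. Ube2c, an E2 enzyme of the anaphase-promoting complex, was at 211 and 213 CPM in cKO and 235 and 217 CPM in control libraries (log2 fold change −0.10, SE 0.05, edgeR adjusted p = 0.41), with both cKO libraries below both controls. Cdc20, an activator of that complex, was at 218 and 221 CPM in cKO and 219 and 233 CPM in control libraries, with overlap. Of kinetochore genes, the motor gene Cenpe had a log2 fold change of −0.04 and Cenpf of 0.04. Of spindle genes, Tpx2, an activator of Aurora A, was at −0.03, the microtubule-binding Nusap1 at −0.02 and the hyaluronan-mediated motility receptor gene Hmmr at 0.08, the last with 114 and 121 CPM in cKO and 114 and 108 CPM in control libraries.

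The groups did not overlap in CPM for 13 of 38 members, 34.2%, of which 8 had both cKO libraries above and 5 had both below the controls. Over all genes tested, 48.3% did not overlap, 24.3% with the cKO above and 24.0% with the cKO below. Among S phase members 5 lay above and 1 below, and among G2/M members 3 above and 4 below.

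**Figure D4:**
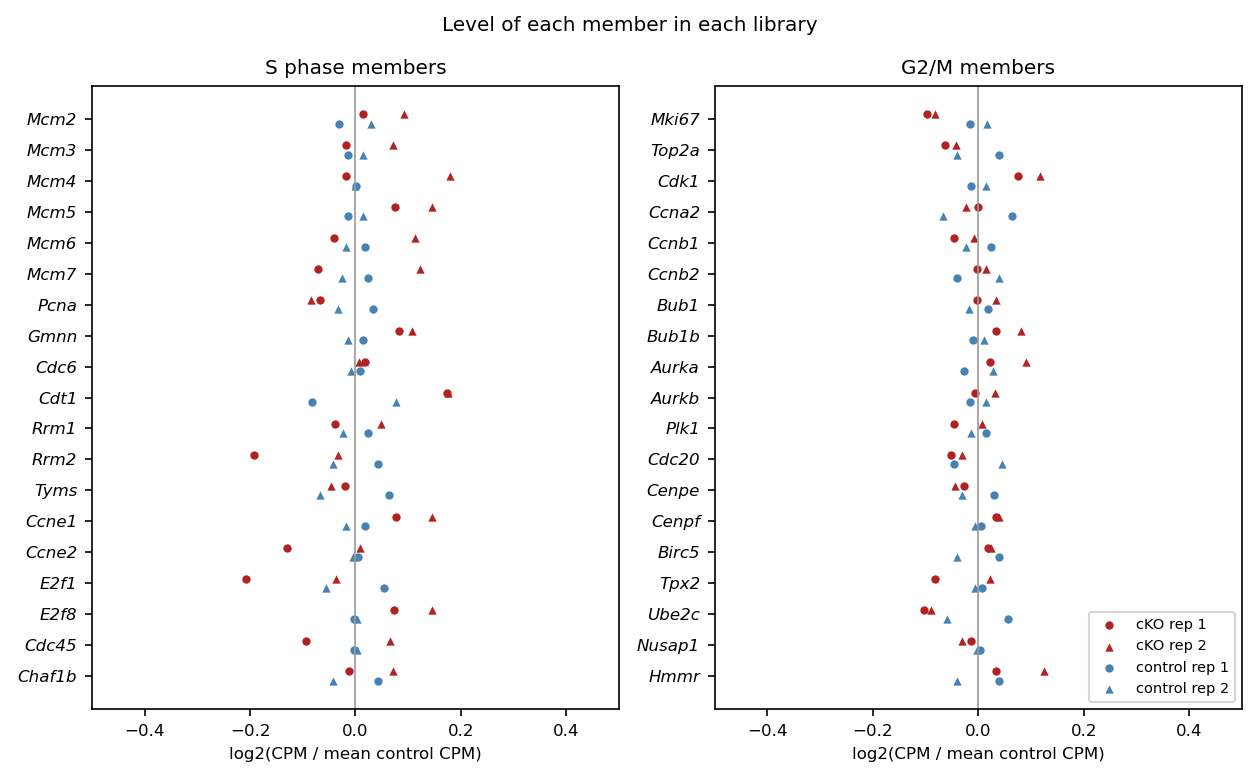
Level of each member in each library as log2 of its CPM over the mean of the controls (horizontal axis), with S phase genes on the left and G2/M genes on the right; red marks are cKO and blue marks control, circles replicate 1 and triangles replicate 2. Mcm4 shows the cKO libraries apart, at 285 and 326 CPM, beside controls that are both at 288 CPM.

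For the S phase members, the cKO pair differed by as much as the groups did, with a median absolute log2 difference of 0.08 between the cKO libraries and a median absolute log2 fold change of 0.06. The first is between single libraries and the second between groups, so they are not like measures. The control pair differed by 0.04 in these genes. Over all genes tested, the cKO pair and the control pair each differed by 0.11. In S phase members cKO replicate 2 was above cKO replicate 1 in 16 of 19 genes, with a median log2 difference of 0.08, and the largest was 0.20. G2/M members had the same direction in 16 of 19 genes, with a median of 0.02. In the control pair, replicate 1 was above replicate 2 in 13 of 19 S phase and 12 of 19 G2/M members. Over all genes tested, cKO replicate 2 was above cKO replicate 1 in 7180 of 14235 genes. Control replicate 1 was above control replicate 2 in 7187 of them. Mcm4 was at 285 and 326 CPM in cKO libraries and at 288 CPM in each control library, so the spread of the cKO pair exceeded the difference between groups. Without cKO replicate 2 the median log2 fold change of the S phase members was −0.02, and without cKO replicate 1 that of the G2/M members was 0.02. Counts of the 19 S phase genes summed to 0.444% and 0.471% of the cKO libraries and 0.462% and 0.454% of the control libraries. Those of the G2/M genes summed to 0.548% and 0.552% of the cKO libraries and 0.569% and 0.560% of the control libraries.

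Levels per kilobase of exon give only a rough order of the genes, since counts and exon lengths come from different annotations. The order ran from Pcna, at 202 ± 1.6 CPM per kb in cKO and 212 ± 7.0 CPM per kb in control libraries, to Ccne2, at 9.98 ± 0.68 CPM per kb in cKO and 10.4 ± 0.055 CPM per kb in control libraries (SD, n = 2 each). Rrm2, in the second place, was at 187 ± 15 CPM per kb in cKO and 201 ± 8.5 CPM per kb in control libraries, so its spread reached that of Pcna. Cdc20 was at 118 ± 1.2 in cKO and 121 ± 5.5 CPM per kb in control libraries and Top2a at 112 ± 1.1 in cKO and 116 ± 4.5 CPM per kb in control libraries, the highest of the G2/M genes and not apart from each other in the controls. Of the MCM genes, Mcm7 was highest, at 106 ± 10 in cKO and 104 ± 2.5 CPM per kb in control libraries, and Mcm2 lowest, at 54.3 ± 2.1 in cKO and 52.3 ± 1.6 CPM per kb in control libraries. The regulators E2f8 and Ccne2 stood at the low end, with E2f8 at 12.4 ± 0.44 in cKO and 11.5 ± 0.031 CPM per kb in control libraries. Exon lengths were taken from GENCODE M21, while counts were summed over UCSC RefSeq exons, so the order depends on both annotations. Mcm2 has 6956 exon bases in GENCODE M21, the most of the MCM genes. Its mean CPM in control libraries was above those of Mcm3, Mcm4 and Mcm5.

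Some counts can include reads of other genes. In GENCODE M21, 10 members share exon bases with another gene, 9 of them with one on the opposite strand. Without strand information, reads from such shared bases cannot be told apart. Whether they were counted for the member or left out was not tested. The overlap passed 10% of exon bases for Ube2c (22.8%, with Tnnc2), Ccne2 (17.4%, with Ints8), Ccna2 (12.5%, with Exosc9) and E2f8 (11.2%, with Gm2788). Processed pseudogenes named for Ccnb1, Ccnb2, Pcna and Tyms are annotated there too, and whether reads are shared with them was not tested. Of these pseudogenes, Tyms-ps is in the count table, with 2 counts over the 4 libraries, and the others are absent from it.

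Further genes of the same processes also stayed near their control levels. Of 54 other replication genes (origin recognition, GINS, polymerases, RPA, clamp loader and nucleotide enzymes), 0 were called by edgeR, DESeq2 or limma-voom, and 6 had an unadjusted edgeR p under 0.05, 4 higher and 2 lower, or 11.1% against 17.5% of all genes tested. Their median log2 fold change was 0.01. The smallest p belonged to Dck, a deoxynucleoside salvage kinase, at 134 and 138 CPM in cKO and 160.2 and 152 CPM in control libraries (log2 fold change −0.20, SE 0.05, edgeR adjusted p = 0.099), and the next to Mcm8, an MCM relative of DNA repair (0.23, SE 0.07, edgeR adjusted p = 0.14). Of 62 other mitosis genes, 0 were called by the 3 tools and 3 had an unadjusted edgeR p under 0.05, 1 higher and 2 lower, or 4.84% against the same 17.5%, with a median of −0.003. The spindle midzone gene Prc1 was at −0.16 on the log2 scale (SE 0.05, edgeR adjusted p = 0.15), and Zwilch, a gene of the kinetochore RZZ complex, at 0.17 (SE 0.06, edgeR adjusted p = 0.22).

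Of 23 regulators of these programmes (E2F, MuvB, Rb, MYB and NF-Y genes), 1 was lower and 0 higher, or 4.35% against 3.70% of all genes. At an unadjusted edgeR p under 0.05, 5 were lower and 1 higher, or 26.1% against 17.5% of all genes tested. The log2 fold change was below 0 for 17 of the 23 and above 0 for 6. The gene that fell was Tfdp2, a dimerisation partner of E2F proteins. It was at 116 and 113 CPM in cKO and 149 and 168 CPM in control libraries (log2 fold change −0.47, SE 0.07, edgeR adjusted p = 0.012), and both cKO libraries lay below both controls. Its call was lost without cKO replicate 2 (log2 fold change −0.46, edgeR adjusted p = 0.071). The list median was −0.06, and 10 of the 23 had both cKO libraries below the controls and 3 had both above, so that 56.5% did not overlap, against 48.3% of all genes tested (24.0% below and 24.3% above).

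Several marker lists of cell types differed between the groups. Of 18 neuron markers, 5 fell and 0 rose in edgeR, with a median of −0.65 on the log2 scale. That is 27.8% called, against 3.70% of all genes tested (2.13% lower). Their summed counts were 0.0696% and 0.0702% of the cKO libraries and 0.121% and 0.0993% of the control libraries. Neural progenitor markers, which cycling cells express, had 5 of 13 lower and 0 higher (38.5% called, median −0.27), and took 0.359% and 0.378% of the cKO libraries and 0.458% and 0.410% of the control libraries. Sox1, the gene the Cre is named for, was among them (−0.29 on the log2 scale, edgeR adjusted p = 0.031). Sox1 was no longer called when cKO replicate 1 (edgeR adjusted p = 0.137), cKO replicate 2 (adjusted p = 0.083) or control replicate 1 (adjusted p = 0.099) was taken out. Of 9 erythroid markers tested 6 were lower and 0 higher (66.7% called, median −0.68), at 0.190% and 0.179% of the cKO and 0.286% and 0.308% of the control libraries; Hba-a1, Hba-a2, Hbb-bt and Hbb-bs had no count in any library. Endothelial markers (0 of 12 called, median −0.29) took 0.0306% and 0.0304% of the cKO and 0.0364% and 0.0350% of the control libraries. Mesenchyme and neural crest markers (0 of 11 called in edgeR, median −0.27) took 0.0980% and 0.0641% of the cKO and 0.102% and 0.108% of the control libraries. Single genes of this list ran from −0.59 to 1.34, with 2 above and 9 below 0, and the groups overlapped for 7. DESeq2 called 7 neuron, 7 progenitor, 6 erythroid, 0 endothelial and 1 mesenchyme or neural crest marker, against 4.57% of the genes it gave an adjusted p. For limma-voom these counts were 3, 5, 6, 0 and 0, against 3.38% of all genes tested. The part of the marker shifts in the values of the replication and mitosis genes was not tested.

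**Figure D5:**
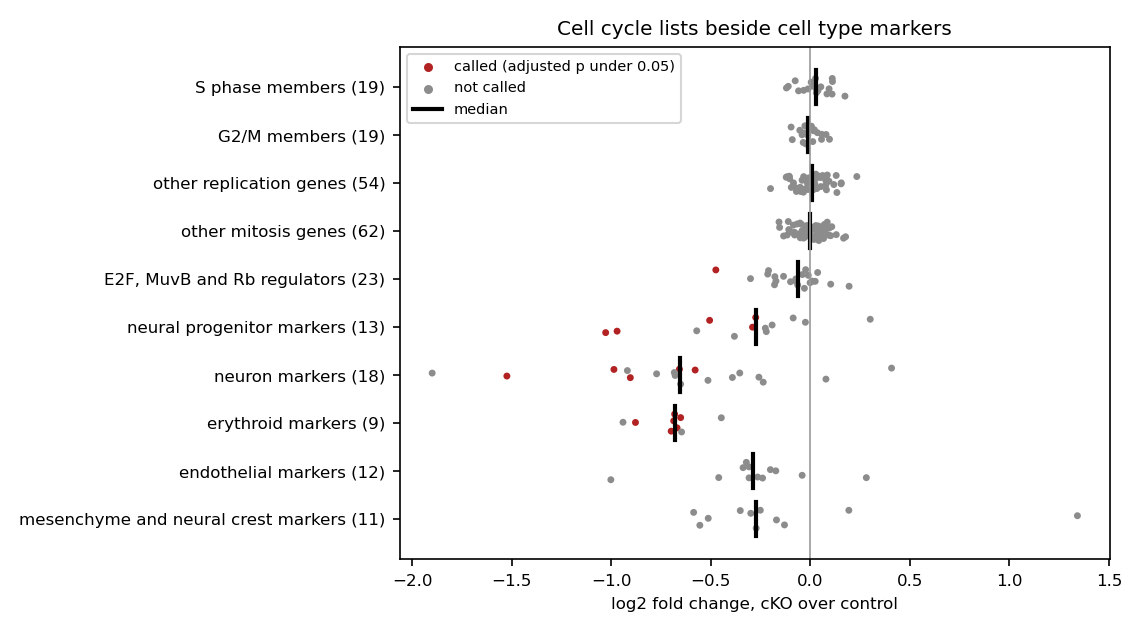
Log2 fold change, cKO over control (horizontal axis), of each gene tested, by list (number of genes in brackets); red points were called at an adjusted p under 0.05, grey points were not, and black bars are medians. The replication and mitosis lists sit at medians of −0.01 to 0.03, while neuron and erythroid markers have medians of −0.65 and −0.68.

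The authors' deposited table holds all 38 members. Of these, 0 in the authors' deposited table have an adjusted p under 0.05. Among all genes the authors gave an adjusted p, 626 of 13964 are under 0.05. The lowest adjusted p of a member is 0.516, and the log2 fold changes of the members run from −0.12 to 0.17.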

How the data were processed

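The 4 RNA-seq libraries of E10.5 forebrain were compared, 2 cKO and 2 control, grouped by title. The authors deposited raw counts per gene: featureCounts 2.0.1 in paired-end mode summed exons by gene, with the UCSC RefSeq gene set of mm10 and no strand option, per the file headers. HISAT2 and DESeq2 are named in the submitters' processing notes. The authors also deposited log2 fold changes with SEs, p-values and adjusted p-values, a Wald statistic (a score, not used) and normalized counts (a signal scaled per library by the authors, not used); 0 per-sample columns lacked a sample.

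The filterByExpr rule (minimum count 10) kept 14235 genes, whose counts were scaled by TMM and tested in edgeR 4.0.16 under R 4.3.3 (glmQLFit, glmQLFTest, no covariate), with Benjamini-Hochberg adjustment over all genes and adjusted p under 0.05 called. The SE is the log2 fold change over the root of F, and intervals use the total degrees of freedom (median 7.42). In simulated counts for 14044 genes, 65.7% of genes changed 1.5-fold and 91.0% of those changed 2-fold were recovered, with 6 false calls among 177. The changed genes were drawn only from those above a minimum mean CPM. Each simulated gene had the spread of its level, with none of its own, and no change under 1.5-fold was simulated. Totals of 16581252 to 17096522 counts set the depth.

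The members and lists were chosen with earlier results of these data known. Named genes are all members, the called genes or the 2 with the smallest p of each further list, Chd7 and Sox1. Alternatives were DESeq2 1.42.0 (size factors, Wald test), upper-quartile factors, limma-voom 3.58.1, no filter, erythroid genes removed, the replicate number as a block and each library left out; a lone library is then assumed to vary like the other group. Of the marker symbols, Ahsp was not matched. Positions and promoters are from RefSeq GRCm38.p6.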

Additional observations from a re-analysis of the deposited data

How the results depend on the processing

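No member was called under any of the 7 alternatives or the 4 leave-one-out fits; the lowest adjusted p was 0.076, for Cdt1 without control replicate 2, and 0.207 outside the leave-one-out fits, for Cdt1 with upper-quartile factors. Outside the leave-one-out fits 264 of 266 member values kept their sign; with upper-quartile factors, which moved the median of all genes to 0.01, Cdc45 was at 0.0027 and Ccna2 at 0.0022. Leaving out a library changed the sign of 17 members, among them Mcm4 and Ccne2, at 0.084 and −0.0587 in the main fit. The log2 fold changes of the 17 ranged as follows: Aurkb −0.0041 to 0.0326, Birc5 −0.0181 to 0.0612, Bub1 −0.0017 to 0.036, Ccna2 −0.0749 to 0.0545, Ccnb2 −0.0323 to 0.0466, Ccne2 −0.128 to 0.0106, Cdc20 −0.0858 to 0.0065, Cdc45 −0.0918 to 0.0677, Chaf1b −0.0105 to 0.0742, Mcm3 −0.017 to 0.0724, Mcm4 −0.0168 to 0.181, Mcm6 −0.0385 to 0.115, Mcm7 −0.0686 to 0.124, Plk1 −0.0455 to 0.0085, Rrm1 −0.0377 to 0.0494, Tpx2 −0.0811 to 0.0235, Tyms −0.097 to 0.0347. The cause was not tested. The S phase median ranged from −0.017 to 0.074 and the G2/M median from −0.0181 to 0.0158. Calls over all genes were 526, 348 with the replicate block and from 211 to 769 with a library left out. Between 0 and 1 regulator was called in the leave-one-out fits, 0 without cKO replicate 2. With the replicate block Tfdp2 stayed called and Sox1 did not (adjusted p = 0.065). The replicate numbers have no stated source, and the deviations of same-numbered libraries had a correlation of −0.05 over genes. That value cannot show whether same-numbered libraries shared a litter, day or dissection. With 2 libraries a group, differences under about the interval widths given were not detectable.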
